A study of Mus musculus with 6 samples.

Results

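Messenger RNA levels of the matrix metalloproteinase (MMP), ADAM, ADAMTS, ADAMTS-like and TIMP genes were examined in muscles of C26 tumor-bearing mice and control mice. Members were all probe sets whose gene symbol was Mmp, Adam, Adamts or Adamtsl followed by a number, or Timp1 to Timp4, and 83 of the 21212 probe sets on the array qualified. These were 23 MMP, 33 ADAM, 18 ADAMTS, 5 ADAMTS-like and 4 TIMP genes. Mmp15, Mmp27, Adamts2 and Adamtsl5 were recognized by the Entrez gene ID in their probe set name, and the other 79 members by the symbol of the array annotation.

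The C26 group was 4 male CDF1 mice injected under the skin of both flanks with C26 colon carcinoma cells suspended in PBS and matrigel. The control group was 3 male CDF1 mice given the PBS and matrigel without cells. Mice were 8 weeks old at purchase and were housed one to a cage, and gastrocnemius and plantaris muscles were taken 25 days after inoculation. RNA of 2 to 3 muscles was pooled for each array, giving 3 C26 pools (numbered 1, 3 and 4) and 3 control pools (numbered 1, 2 and 3). Since 3 pools were made from 3 or 4 mice, pools of one group may contain RNA of the same mouse, so the P values measure the spread between pools, which may be smaller than that between mice.

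MMPs are zinc-dependent proteases that are secreted or held at the cell surface as inactive proenzymes and that cut collagens, proteoglycans and other matrix proteins. ADAMs are membrane-bound relatives, several of which release the outer part of cytokines, growth factors and receptors from the cell surface, while ADAMTS enzymes are secreted and cut proteoglycans, procollagens and von Willebrand factor. ADAMTS-like proteins share the matrix-binding domains of the ADAMTS enzymes without the protease, and TIMPs are the secreted inhibitors of MMPs and of some ADAMs. In skeletal muscle these genes are known for the remodeling of the connective tissue around fibers and for the regeneration of injured muscle.

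Levels are RMA values, which are log2 probe intensities after background correction and quantile normalization, so a difference of 1 is a doubling. Levels were compared between groups for each gene and not between genes, since probes differ in brightness. A gene was called higher or lower in C26 muscle when limma gave a Benjamini-Hochberg adjusted P of at most 0.05 over all 21212 probe sets and the change was at least 1.5-fold. Of all probe sets, 1261 (5.94%) were higher and 1049 (4.95%) lower by this rule, and after centring each array on its median the same rule gave 1534 higher and 839 lower. Pools of a group correlated at 0.9944 to 0.9962 across probe sets and pools of different groups at 0.9757 to 0.9809. All 10 skeletal muscle fiber markers were above the array background, taken as a level of 3.82, below which 95% of 1280 olfactory and vomeronasal receptor probe sets lie.

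By the 1.5-fold rule 6 of the 83 members (7.23%, against the 5.94% of all probe sets) rose in C26 muscle and 1 (1.2%, against 4.95%) fell. The share that rose was near that of the array as a whole. The members that rose were the stromelysin Mmp3, the collagenase Mmp8, Mmp19, the membrane-type MMP Mmp14, the aggrecanase Adamts4 and the inhibitor Timp1. The 1 that fell was Mmp15, another membrane-type MMP. With the adjusted P alone, 12 members (14.5%) were higher and 16 (19.3%) lower, against 14.3% and 15.8% of all probe sets. In 15 members the C26 pools all lay above the control pools and in 24 all below, where 19.3% and 24.6% of all probe sets did so. The median change over the 83 members was -0.06 on the log2 scale and over all probe sets -0.05.

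**Figure D1:**
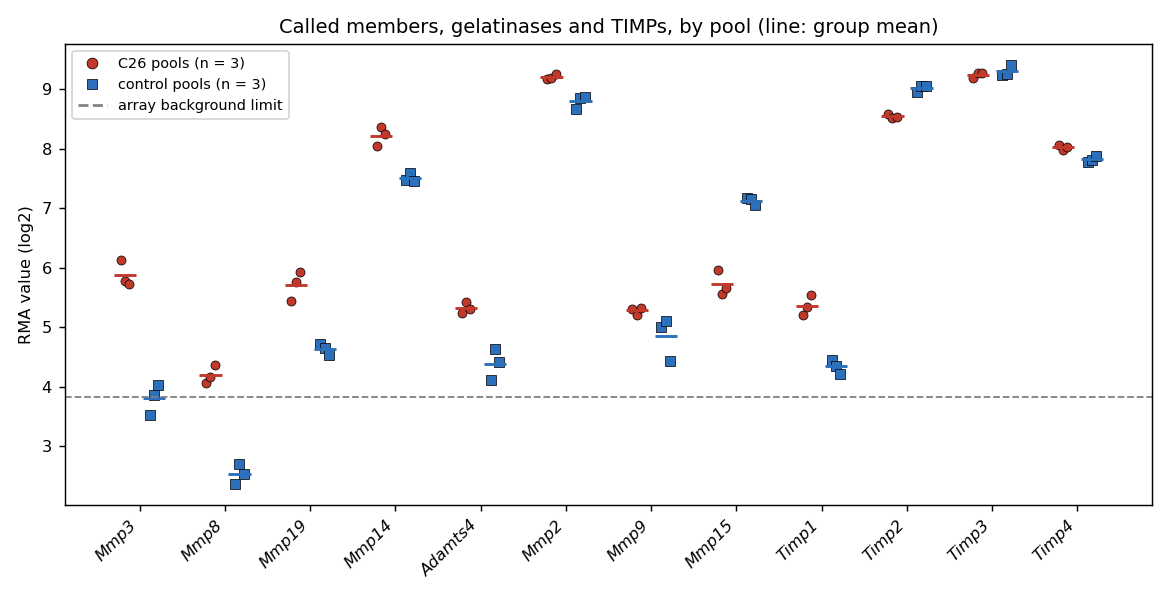
Level (RMA value, log2) of the 7 called members, the gelatinases Mmp2 and Mmp9, Timp2, Timp3 and Timp4 in each of the 3 C26 pools (left) and 3 control pools (right), each point 1 pool, each line the group mean and the dashed line the array background. In the 6 genes that rose the C26 pools are all above the control pools, and in Mmp15 they are all below.

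Of the 83 members, 50 had a mean above the array background in at least 1 group, 42 of them in both. Over the whole array, 14877 of the 21212 probe sets were above it in at least 1 group. Mmp3, Mmp8 and Mmp25 exceeded it in C26 muscle alone, and Mmp13, Adam23, Adamts3, Adamts16 and Adamts17 in control muscle alone. The other 33 were under this limit in both groups, and their changes lay between -0.30 and 0.12. The limit is the upper end of the receptor probe sets, whose median was 2.14, a level that 73 of the 83 members exceeded. By subfamily, 14 of 23 MMP, 12 of 33 ADAM, 15 of 18 ADAMTS, 5 of 5 ADAMTS-like and 4 of 4 TIMP genes were above background. The missing ADAM genes were mostly those of the male germ line: 19 of the 21 ADAMs known mainly from testis and epididymis were below it, as were 5 of 7 spermatid markers. Adam1a and Adam4 were the exceptions, and neither was called.

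**Figure D2:**
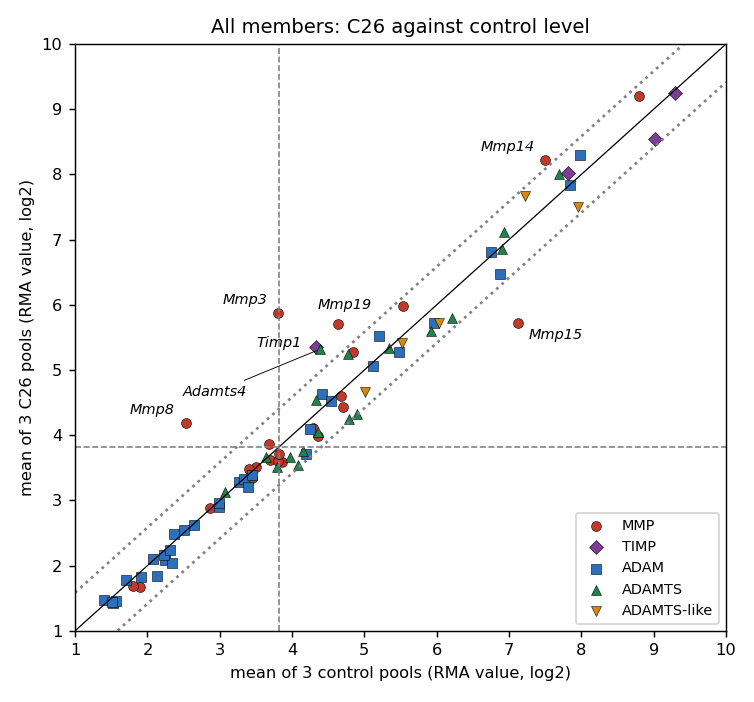
Mean level of each of the 83 members in the 3 C26 pools (vertical axis) against the 3 control pools (horizontal axis), both as RMA values (log2), with the symbol showing the subfamily. Dashed lines mark the array background, the solid line equal levels and dotted lines a 1.5-fold difference. Mmp3 and Mmp8 lie left of the control background line and above the C26 one, and Mmp15 lies farthest below the line of equal levels.

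Mmp3 encodes stromelysin-1, which cuts proteoglycans and laminin and activates other MMP proenzymes, and showed the largest rise of all members. Its level was 6.12, 5.77 and 5.73 in the C26 pools, against 3.52, 3.86 and 4.03 in the control pools. The lowest C26 pool was thus well above the highest control pool, and the control mean was just under the array background. The difference was 2.07 ± 0.15 on the log2 scale (SE), with an adjusted P of 3.02e-05. With the background level in place of this dimmer control mean, the C26 mean of Mmp3 was 4.13-fold higher. That ratio takes no account of the spread between pools, and the 95% interval of the measured difference was 1.72 to 2.41.

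Mmp8, the collagenase best known from neutrophil granules, read 4.06, 4.15 and 4.36 in the C26 pools, against 2.36, 2.70 and 2.53 in the control pools. Pools did not overlap, and the difference of 1.66 ± 0.11 (SE) had an adjusted P of 2.18e-05. The control values were far under the background, so that only the part of the rise above it was at levels the array could measure. The C26 mean was 1.29 times the background level, without account of the spread between pools. Neutrophil markers moved in the same direction: 6 of 11 (54.5%) rose, against 5.94% of all probe sets, and none fell. Their mean level was 4.07 to 4.30 in the C26 pools, against 3.12 to 3.24 in the control pools. Cxcr2, S100a8 and Retnlg were above background in C26 muscle alone, while Ly6g, Mpo, Ltf, Camp and the called Ngp were under it in both groups. The part of these cells in the Mmp8 result was not tested. In whole muscle, more cells of a type and more RNA per cell cannot be told apart.

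Mmp3 and Mmp8 lie in a cluster of 10 MMP genes on chromosome 9, and the remaining 8 genes of the cluster did not pass the test. In order along the chromosome the 10 genes are Mmp13, Mmp12, Mmp1b, Mmp3, Mmp1a, Mmp10, Mmp8, Mmp27, Mmp20 and Mmp7. Mmp13, the main interstitial collagenase of rodents, read 3.55, 3.71 and 3.51 in the C26 pools, against 3.70, 4.06 and 3.82 in the control pools, which overlapped. Mmp12, the macrophage metalloelastase, averaged 3.34 in C26 and 3.44 in control pools, both under background. The stromelysin Mmp10, next to Mmp8, averaged 3.62 in C26 and 3.69 in control pools and was under background as well. A rise was thus called in 2 genes of the cluster, and 7 of the other 8 were under background in both groups, where the array measures little.

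**Figure D3:**
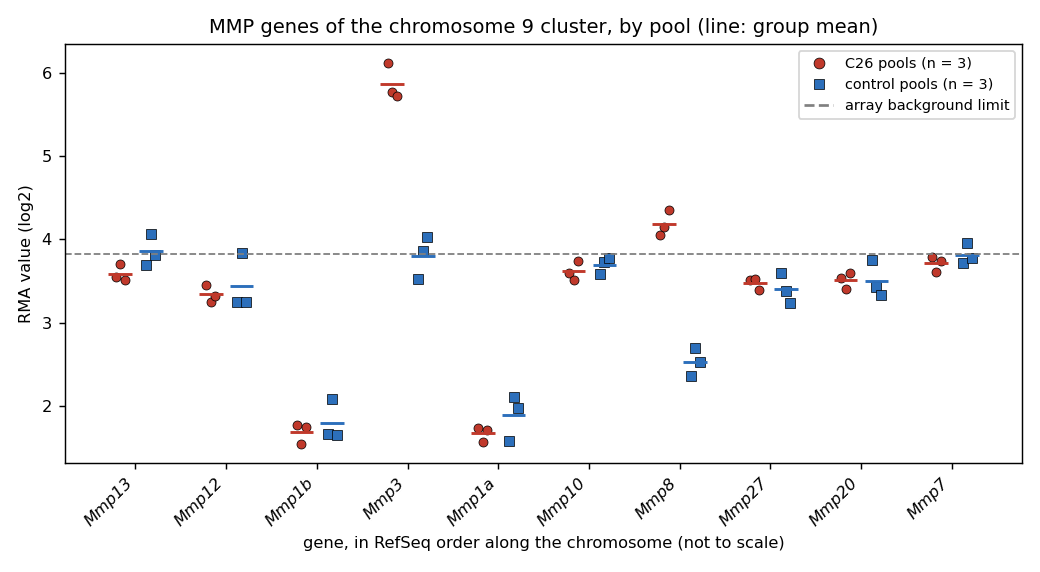
Level (RMA value, log2) of the 10 MMP genes of the chromosome 9 cluster, in their order along the chromosome, with C26 pools left and control pools right for each gene and each point 1 pool. The dashed line is the array background of 3.82. Mmp3 and Mmp8 are the genes in which the C26 pools are separated from the control pools.

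The sequences before the transcription start of the cluster genes are shown because 8 of the 10 share a short motif there, whether or not the gene rose. The motif is TGANTCA, the site of AP-1 (Fos and Jun dimers), which reads as the same pattern on both strands. It was found 35 to 95 bases before the start, counted to its first base, and 7 of the 8 matches were TGAGTCA or its complement TGACTCA. Sequences are from RefSeq promoters of build GRCm38.p6, printed in the direction of transcription with the match in capitals and 15 flanking bases on each side.
Mmp13, chr9:7272464-7272500, plus strand: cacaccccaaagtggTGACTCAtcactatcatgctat
Mmp12, chr9:7347315-7347351, plus strand: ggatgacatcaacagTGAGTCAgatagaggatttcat
Mmp1b, chr9:7388098-7388134, minus strand: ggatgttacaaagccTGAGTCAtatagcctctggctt
Mmp3, chr9:7445761-7445797, plus strand: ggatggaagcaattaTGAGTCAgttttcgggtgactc
Mmp1a, chr9:7464053-7464089, plus strand: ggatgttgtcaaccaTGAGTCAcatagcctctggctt
Mmp10, chr9:7502264-7502300, plus strand: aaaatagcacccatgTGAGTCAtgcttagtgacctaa
Mmp20, chr9:7628121-7628157, plus strand: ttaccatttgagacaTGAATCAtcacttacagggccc
Mmp7, chr9:7692012-7692048, plus strand: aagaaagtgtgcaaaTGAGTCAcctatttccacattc
Mmp8 and Mmp27 had no match in their 250 bases, and of all 32851 promoters of the same length 6.75% had one. Mmp12 and Mmp7 each had another listed promoter, not shown, without an AP-1 match. Outside the cluster the motif was found before Adam19, Adam20, Adam25 and Adam29. Of the 8 cluster genes with the motif, Mmp3 rose and 7 were not called, 6 of which were under background in both groups.

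The promoters of 5 of the 7 called members were in the RefSeq table, and the 150 bases before the start of each are shown so that the genes that moved can be set beside each other. Capitals mark AP-1 (TGANTCA) and C/EBP (TTGCNNAA) matches on either strand. The STAT (TTCNNNGAA), FOXO (TGTTTAC) and kappa B motifs were searched in the same way on both strands and were found in none of the 5.
Mmp3 promoter, chr9:7445672-7445821, plus strand: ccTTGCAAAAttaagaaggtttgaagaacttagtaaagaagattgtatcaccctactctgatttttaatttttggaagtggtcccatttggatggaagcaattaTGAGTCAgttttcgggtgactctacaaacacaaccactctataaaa
Mmp8 promoter, chr9:7558279-7558428, plus strand: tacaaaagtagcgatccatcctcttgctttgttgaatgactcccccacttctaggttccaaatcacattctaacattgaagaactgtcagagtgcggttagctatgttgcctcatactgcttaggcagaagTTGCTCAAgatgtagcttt
Mmp14 promoter, chr14:54431448-54431597, plus strand: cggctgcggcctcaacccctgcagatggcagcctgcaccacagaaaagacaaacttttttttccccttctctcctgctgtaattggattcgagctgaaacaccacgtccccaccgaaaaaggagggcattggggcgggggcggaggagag
Timp1 promoter, chrX:20870016-20870165, plus strand: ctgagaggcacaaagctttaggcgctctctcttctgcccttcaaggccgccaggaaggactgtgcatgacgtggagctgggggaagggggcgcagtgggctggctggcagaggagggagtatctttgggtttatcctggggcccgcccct
Mmp15 promoter, chr8:95352146-95352295, plus strand: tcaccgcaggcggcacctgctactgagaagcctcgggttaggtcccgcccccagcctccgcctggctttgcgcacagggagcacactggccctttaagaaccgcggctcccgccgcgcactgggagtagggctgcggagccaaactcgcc
Mmp3 had an AP-1 match 46 bases and a C/EBP match 148 bases before the start, and Mmp8 a C/EBP match 19 bases before it. Mmp14, Timp1 and Mmp15 had no match to the 5 motifs. C/EBP matches were in 9.56% of all promoters and in 15.8% of the 57 promoters of 52 members, STAT matches in 7.02% and 5.26%, FOXO matches in 3.17% and 7.02%, and kappa B matches in 3.9% and 5.26%. The 5 genes that moved thus had no motif in common among those searched.

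Among the membrane-type MMPs, which are anchored at the cell surface, 1 gene rose and 1 fell. Mmp14 (MT1-MMP), the activator of the MMP2 proenzyme and itself a collagenase, read 8.05, 8.36 and 8.24 in the C26 pools, against 7.47, 7.59 and 7.45 in the control pools. The pools did not overlap and Mmp14 rose 1.64-fold, a difference of 0.71 ± 0.10 (SE) with an adjusted P of 0.00076. With a t-test that allows unequal variances the difference is the same and the call is lost (adjusted P = 0.053). Mmp15 (MT2-MMP) read 5.95, 5.55 and 5.66 in the C26 pools, against 7.17, 7.16 and 7.05 in the control pools. All C26 pools were more than 1 log2 unit below the control pools, and the change was -1.40 ± 0.11 (SE, adjusted P = 4.39e-05), so control levels were 2.64 times those of C26 muscle. The other 4 membrane-type genes, Mmp16, Mmp17, Mmp24 and Mmp25, were not called.

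Mmp19, a secreted MMP that cuts basement membrane proteins, read 5.44, 5.75 and 5.93 in the C26 pools, against 4.71, 4.64 and 4.53 in the control pools. It rose 2.11-fold, by 1.08 ± 0.12 (SE, adjusted P = 0.000317), with no overlap between groups, and this call too is lost with unequal variances (adjusted P = 0.0647). The gelatinases, which cut denatured and basement membrane collagen, did not reach 1.5-fold. Mmp2 read 9.17, 9.19 and 9.26 in the C26 pools, against 8.66, 8.85 and 8.87 in the control pools, a difference of 0.41 ± 0.08 (SE) that passed the adjusted P (0.00626) and not the fold limit. Mmp9 read 5.31, 5.21 and 5.32 in the C26 pools, against 5.00, 5.10 and 4.43 in the control pools. Control pool 3 was lower than the others, the groups did not overlap, and the difference of 0.44 had an adjusted P of 0.0725. Mmp11 (stromelysin-3) differed by 0.44 ± 0.10 (SE, adjusted P = 0.00985) and also stayed under 1.5-fold.

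Macrophage markers were among the other cell markers that differed. Of 11, 5 (45.5%) rose, against 5.94% of all probe sets, and none fell. Itgam and Cd163 were among those that rose, while Adgre1 averaged 4.74 in both groups. The mean of the list was 6.68 to 6.75 in the C26 pools, against 6.13 to 6.21 in the control pools. Of 10 fibroblast markers 1 (10%) rose and 2 (20%) fell, against 5.94% and 4.95% of all probe sets. Their mean was 7.19 to 7.29 in the C26 pools, against 7.39 to 7.47 in the control pools. The part of these cells in the changes of Mmp14, Mmp19 and Timp1 was not tested.

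The 4 TIMP genes did not move together. Timp1, the inducible inhibitor, read 5.20, 5.33 and 5.55 in the C26 pools, against 4.45, 4.34 and 4.22 in the control pools. It rose 2.03-fold, by 1.02 ± 0.11 (SE, adjusted P = 0.000198), and every C26 pool was above every control pool. Timp2, which also takes part in the activation of MMP2 by MMP14, read 8.58, 8.52 and 8.54 in the C26 pools, against 8.95, 9.06 and 9.06 in the control pools. The C26 pools were all lower, by -0.48 ± 0.07 (SE, adjusted P = 0.00145), which is short of 1.5-fold. Timp3, the matrix-bound inhibitor of ADAM17 and of aggrecanases, read 9.19, 9.26 and 9.27 in the C26 pools, against 9.24, 9.25 and 9.41 in the control pools. These overlapped, and the 95% confidence interval of the difference, -0.24 to 0.12, lay within 1.5-fold. Timp4, an inhibitor known from heart and muscle, differed by 0.20 with an adjusted P of 0.0673.

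Among the 6 ADAMTS enzymes that cleave proteoglycans, Adamts4 alone was called. Adamts4 (aggrecanase-1) read 5.23, 5.42 and 5.30 in the C26 pools, against 4.10, 4.62 and 4.41 in the control pools. It rose 1.91-fold, by 0.94 ± 0.13 (SE, adjusted P = 0.000868), without overlap, a call that unequal variances end (adjusted P = 0.0839). Adamts1, which cuts versican and aggrecan, read 7.95, 8.07 and 8.02 in the C26 pools, against 7.66, 7.77 and 7.65 in the control pools. All C26 pools were again higher, but the difference of 0.32 ± 0.08 (SE, adjusted P = 0.0135) was below 1.5-fold. Adamts5, the other main aggrecanase and the chromosome 16 neighbor of Adamts1, differed by -0.05, with pools that overlapped. Adamts15 differed by 0.48 ± 0.14 (SE, adjusted P = 0.0337) and Adamts8 by 0.20 with an adjusted P of 0.361.

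Most other ADAMTS differences pointed down and were small. Of the 18 ADAMTS genes, 3 (16.7%) were higher and 8 (44.4%) lower by the adjusted P alone, against 14.3% and 15.8% of all probe sets. The 8 lower ones all missed 1.5-fold. Adamts20, another of the proteoglycan-cleaving enzymes, came nearest to the limit and read 4.33, 4.26 and 4.37 in the C26 pools, against 4.78, 5.01 and 4.88 in the control pools, a difference of -0.57 ± 0.08 (SE, adjusted P = 0.00119). On the other side of the limit, Mmp14 and Adamts4 were the called members with the smallest changes. Adamts14, which removes the amino-terminal propeptide of fibrillar procollagens, read 4.23, 4.33 and 4.19 in the C26 pools, against 4.65, 4.80 and 4.91 in the control pools. Its difference was -0.53 ± 0.09 (SE, adjusted P = 0.00222), again with no overlap. Adamts17 had a difference of -0.53 as well, but its C26 mean was under background.

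Adamts2 is the main procollagen N-proteinase of skin and tendon. It read 6.58, 7.46 and 7.31 in the C26 pools, against 6.94, 6.90 and 6.96 in the control pools. The C26 pools lay on both sides of the tightly grouped control pools, and the interval of the difference, -0.26 to 0.64, reached past 1.5-fold. Adamts3, the third procollagen-cleaving member, differed by -0.30 ± 0.07 (SE, adjusted P = 0.013), with a C26 mean under background. Of the ADAMTS-like genes none of 5 was called by limma. By the adjusted P alone 1 was higher and 2 lower, where 14.3% and 15.8% of all probe sets passed. At an unadjusted P under 0.05 the counts were 1 and 3, where 17.8% of all probe sets passed as higher and 22.0% as lower. Adamtsl4, which binds fibrillin microfibrils, read 7.75, 7.69 and 7.55 in the C26 pools, against 7.14, 7.12 and 7.41 in the control pools, a difference of 0.44 ± 0.10 (SE, adjusted P = 0.012). Adamtsl5 differed by -0.46 and Adamtsl3 by -0.35.

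**Figure D4:**
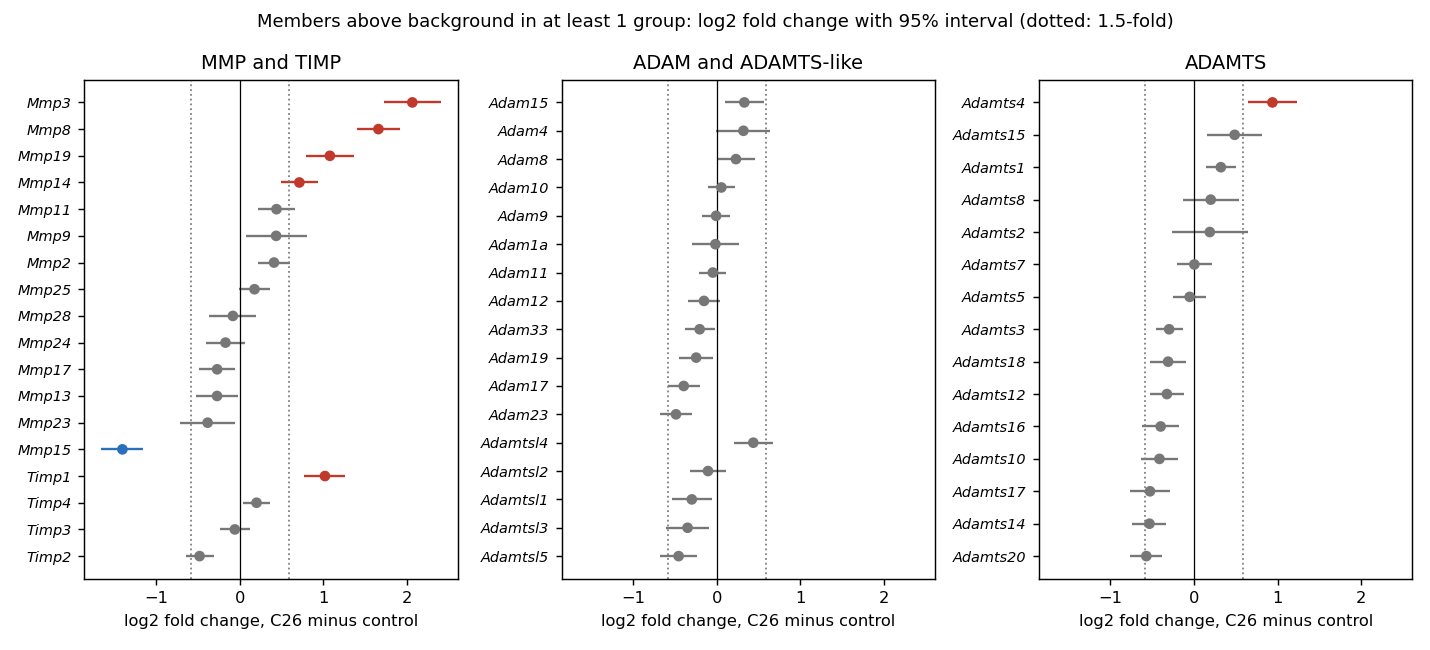
Difference between C26 and control muscle (log2, C26 minus control) with its 95% confidence interval from limma for the 50 members above background, by subfamily, with 3 pools per group. Dotted lines mark 1.5-fold in either direction, and called genes are red (higher) or blue (lower). No ADAM gene is called, although the intervals of Adam17 and Adam23 reach past the lower line and that of Adam4 past the upper one, and Mmp3, Mmp8 and Mmp15 lie far outside the lines.

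None of the 33 ADAM genes was called by limma or under any alternative setting that kept the 1.5-fold limit. By the adjusted P alone 1 (3.03%) was higher and 4 (12.1%) lower, against 14.3% and 15.8% of all probe sets. At an unadjusted P under 0.05 the counts were 2 and 7, where 17.8% and 22.0% of all probe sets passed. Among the 12 above background, the 95% interval of the difference lay within 1.5-fold in 9. Adam10, the constitutive sheddase of Notch receptors, read 6.78, 6.81 and 6.82 in the C26 pools, against 6.71, 6.81 and 6.72 in the control pools. These nearly coincided, and the interval of the difference was -0.11 to 0.22. Adam17, the sheddase that releases TNF and ligands of the EGF receptor, read 6.43, 6.52 and 6.49 in the C26 pools, against 6.97, 6.91 and 6.74 in the control pools. The C26 pools were all lower, by -0.40 ± 0.08 (SE, adjusted P = 0.00764), short of the fold limit.

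Adam12, known from myoblast fusion and regenerating muscle, read 4.06, 4.21 and 4.01 in the C26 pools, against 4.30, 4.17 and 4.26 in the control pools, which overlapped. Its difference of -0.15 had an interval of -0.34 to 0.04. Adam15, which is found on endothelial and smooth muscle cells, differed by 0.33 ± 0.10 (SE, adjusted P = 0.0376). Adam23, a neural member that lacks protease activity, differed by -0.49 ± 0.08 (SE, adjusted P = 0.00269), with control pools just above and the C26 mean just under background. Of the 50 members above background in any subfamily, the interval lay within 1.5-fold for 25.

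Genes that activate, inhibit, carry or serve as substrates of these enzymes were counted from 5 lists with 95 different genes, 83 of them above background. Of the 95, 11 (11.6%) rose and 13 (13.7%) fell, against 5.94% and 4.95% of all probe sets. Among the probe sets above background alone, 8.31% rose and 6.87% fell. The median change of the 95 was -0.05, as it was over all probe sets. After centring each array on its median 15 rose and 9 fell. Of the 24 activators and inhibitors of MMPs, 2 (8.33%) rose, against 5.94% of all probe sets, and none fell. Their median change was -0.01. By the adjusted P alone 7 (29.2%) were higher and 5 (20.8%) lower, against 14.3% and 15.8% of all probe sets. Furin, the convertase that activates MMP14 and most ADAM and ADAMTS proenzymes, rose by 0.59 ± 0.10 (SE, adjusted P = 0.00202), only just 1.5-fold. Reck, a membrane-anchored MMP inhibitor, differed by -0.33 and was not called.

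Of 13 partners in the maturation and trafficking of ADAMs, 1 (7.69%) rose and 1 (7.69%) fell, against 5.94% and 4.95% of all probe sets. Their median change was -0.03. Rhbdf2 (iRhom2), which carries ADAM17 to the cell surface, read 8.21, 8.12 and 7.99 in the C26 pools, against 7.21, 7.08 and 7.24 in the control pools. Its rise of 0.93 ± 0.09 (SE, adjusted P = 0.000113) stood beside the lower, uncalled level of Adam17. Sh3pxd2a (Tks5), an adaptor of podosomes that binds ADAMs, fell by 0.78 on the log2 scale (adjusted P = 0.000376). Among 32 substrates shed by ADAM10 or ADAM17, 4 (12.5%) rose and 3 (9.38%) fell, against 5.94% and 4.95% of all probe sets. Their median change was -0.04. Il6ra, the interleukin-6 receptor, read 9.94, 9.89 and 9.96 in the C26 pools, against 6.44, 6.37 and 6.62 in the control pools, a rise of 3.46 ± 0.09 (SE, adjusted P = 3.73e-07). Il1r2 and Tnfrsf1a rose as well. The control mean of Il1r2 was under background, and its C26 mean was 3.03 times the background level. Hbegf, Egf and Dll1 fell, with changes of -0.59, -0.70 and -0.65 on the log2 scale. Tnf, the substrate for which ADAM17 was named, averaged 3.66 in C26 and 3.84 in control pools, at the background.

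The list of 21 substrates and ligands of ADAMTS enzymes, which also includes the hyaluronan synthases Has1 and Has2, held the largest falls. On it 4 genes (19%) were higher and 7 (33.3%) lower, against 5.94% and 4.95% of all probe sets. The median change was -0.19. Col1a1 read 9.14, 8.60 and 8.37 in the C26 pools, against 11.12, 11.33 and 11.50 in the control pools, a change of -2.61 ± 0.19 (SE, adjusted P = 2.72e-05). Col1a2, Col3a1, Col2a1, the microfibril gene Fbn1 and the matrix genes Fmod and Comp also fell. The hyaluronan synthase Has1, the proteoglycan versican (Vcan), Vwf and Thbs1 rose, by 0.76, 0.63, 0.69 and 1.17. Pcolce and Pcolce2, the enhancers of procollagen C-proteinase, fell, with changes of -0.76 and -0.60 on the log2 scale. They were the 2 called genes (28.6%, against 4.95% of all probe sets) of the 7 astacin-family proteases and their partners.

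Tendon cell markers mostly moved down, as the collagen genes did. Of 8, 4 (50%) fell and 1 (12.5%) rose, against 4.95% and 5.94% of all probe sets, Fmod being on both lists. Their mean was 6.43 to 6.49 in the C26 pools, against 7.68 to 7.83 in the control pools. Chad, Kera and Tnmd fell, with changes of -3.79, -2.80 and -2.73 on the log2 scale, while Egr1 rose by 0.64 (adjusted P = 0.0133). Scx and Mkx differed by -0.56 and -0.23, and Thbs4 by 0.43 in the other direction, without a call. The part of tendon cells in the changes of the collagen genes and of Mmp15 was not tested.

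**Figure D5:**
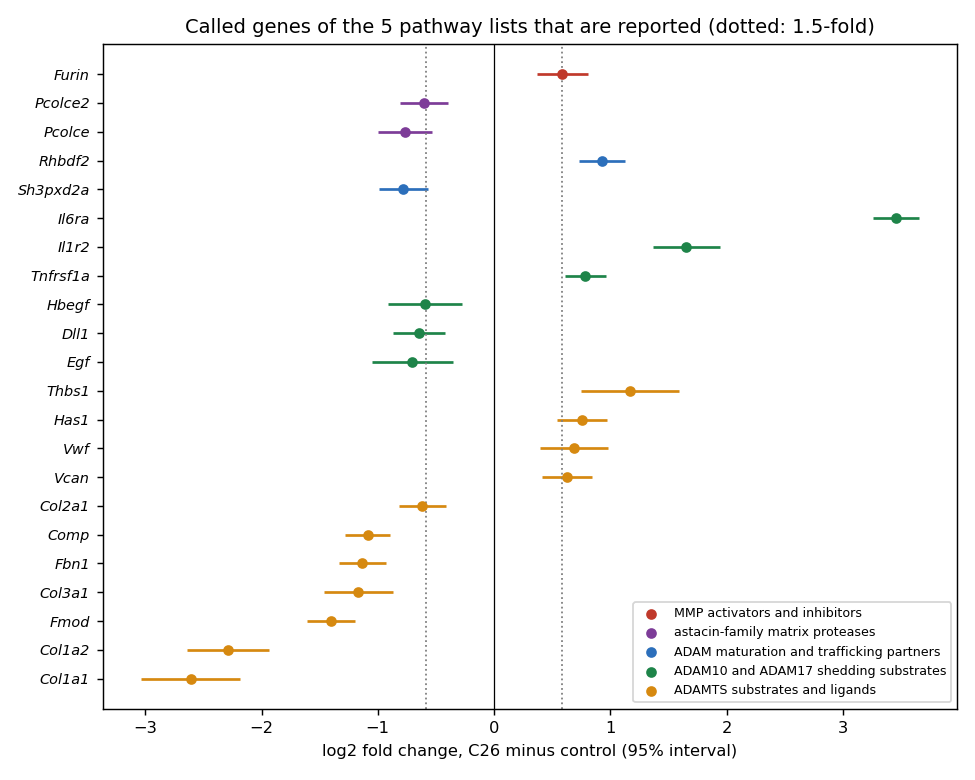
Difference between C26 and control muscle (log2, C26 minus control) of the called genes of the 5 lists that are reported, with the 95% confidence interval from limma and 3 pools per group. Colors mark the list and dotted lines 1.5-fold. Il6ra has the largest rise, and Col1a1 and Col1a2 the largest falls.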

How the data were processed

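Arrays (Mouse Gene 1.0 ST) held 3 pooled RNA samples of C26 and 3 of control gastrocnemius and plantaris muscle, with RNA integrity numbers of 8.0 or more. Values were deposited as log2 intensities, which the authors computed by RMA with a custom Brainarray CDF (version 13) of 1 probe set per gene. RMA normalizes by quantiles, so values are relative to the 6 arrays. The genome build of the probes was not stated in what was read.

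The platform table gave 18786 probe sets a single symbol, and 1916 more took one from a RefSeq table by the Entrez gene ID in the probe set name. Adamts9 was not analysed here. The comparison was a two-sided limma test (version 3.58.1, R 4.3.3, lmFit followed by eBayes with 4.52 prior degrees of freedom), tried first on simulated data. Where 1 group mean was under background, the other group mean was set against the background level. This ratio takes no account of the spread between pools. Motifs were searched in the 250 bases before the start.

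Genes were named if called, if a TIMP or 1 of 7 preset enzymes (Mmp2, Mmp9, Mmp14, Adam10, Adam12, Adam17 and Adamts1), if among the 3 largest uncalled differences above background of a subfamily, if next to the fold limit, or if called on a pathway list. Adamts2, Adamts3, Adamts5, Adamts8, Adamts15 and the uncalled cluster and pathway genes were named after their values were seen. Members and lists were chosen with earlier results of these data known. A few genes counted on the pathway lists are not reported by name. Alternatives were other tests, thresholds, scalings, filters and naming, and leaving out each pool. The number of arrays limits the precision.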

Additional observations from a re-analysis of the deposited data

How the results depend on the processing

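The 6 rises were called under limma with an intensity trend, robust variances, array weights, a background filter and each of 3 other scalings, with the methods' t-test of equal variances, and without any 1 pool (6 to 6). With unequal variances 3 rises were left, Mmp3, Mmp8 and Timp1, while Mmp14 (adjusted P = 0.053), Mmp19 (0.0647) and Adamts4 (0.0839) were lost with the same differences. Without a fold limit 12 members were higher and 16 lower, and a 2-fold limit left 4 and 1. Array weights gave 2 lower members, adding Adamts20. Leaving out 1 pool gave 1 to 3 lower members. Without control pool 1 Adamts14 and Adamts20 were added (3 in all), without control pool 3 or C26 pool 1 Adamts17, and without C26 pool 4 Adamts20 (2 in all each). Naming by platform symbols alone, chosen after seeing the data, gave 0 lower members, since Mmp15 has no symbol there. Of the pathway genes, 24 were higher and 24 lower without a fold limit and 4 and 6 at 2-fold, and unequal variances gave 8 lower. Leaving out 1 pool gave 9 to 12 higher and 11 to 13 lower pathway genes. With the background at the 99th percentile of receptor probe sets 33 members exceeded it, and with the median 73. When every array of a group had to exceed the limit used here, 48 did. Pools of the same number did not deviate together (correlations of deviations -0.06 for both shared numbers). Only numbers 1 and 3 occur in both groups, so this cannot settle whether the numbers pair the pools. A fit with the replicate number as a block gave 7 higher members, adding Adamts15, 1 lower member, and 11 higher and 10 lower pathway genes. Its differences rest on the pools numbered 1 and 3, since no other number occurs in both groups. Values near background limit what the array could measure, most of all for Mmp8. With 3 pools per group that may share mice, the spread between mice is not known.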
